A study of Mus musculus with 10 samples.

Results

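Metallothioneins and zinc transporters were followed in the pancreas of KSR23 and WT mice as a group of 8 genes: the metallothioneins Mt1 and Mt2, the SLC30 transporters Slc30a1 and Slc30a2, and the SLC39 transporters Slc39a4, Slc39a5, Slc39a7 and Slc39a14. The genes were taken by symbol from the count files, which listed all 8 among 24062 genes, and all 8 were among the 13882 genes that entered the test, with 5 counts or more per library. In KSR23 pancreas Mt1 and Mt2 were lower by 3.74-fold and 3.46-fold, the importer gene Slc39a5 was lower by 2.33-fold and the exporter gene Slc30a1 by 1.44-fold. The importer gene Slc39a4 was higher by 2.89-fold and Slc39a7 by 1.22-fold, and Slc30a2 and Slc39a14 did not pass the test.

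The study concerned the effects of the cytokine interleukin-23 (IL-23) when it is expressed early in life, and the samples were whole pancreas from 5 WT and 5 KSR23 C57BL/6 pups at postnatal day 5. KSR23 mice carry the R23 cassette, which encodes IL-23 and is switched on by Cre recombinase driven by the keratin 14 promoter. IL-23 is therefore directed to keratinocytes and other cells that use this promoter. The WT pups carried the label wild type, and no control with Cre alone or R23 alone was analysed here. RNA from the whole organ mixes acinar, duct, islet, immune and stromal cells.

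Zinc is needed in cells but harmful in excess, so its free level in the cytosol is held low. Metallothioneins are small proteins whose cysteines bind zinc and copper, SLC30 proteins (ZnT) move zinc out of the cytosol into vesicles or out of the cell, and SLC39 proteins (ZIP) move it into the cytosol from outside or from organelles. Metal-responsive transcription factor 1 (MTF1) binds metal response elements in front of Mt1, Mt2 and Slc30a1 when zinc rises, and metallothionein genes also respond to glucocorticoids and to inflammatory cytokines. In the pancreas acinar cells secrete zinc with digestive enzymes, among them zinc carboxypeptidases, and islet beta cells store insulin with zinc.

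Mt1 and Mt2 lie next to each other on the plus strand of chromosome 8, at chr8:94179082-94180327 and chr8:94172664-94173568 (GRCm38, GENCODE M21). Their coding sequences are shown because the cysteine codons are what gives these proteins their metal binding and because the likeness of both genes bears on how well reads can be told apart. Capitals mark the cysteine codons, and the sequences run 5′ to 3′ from the start codon to the stop codon of the principal transcript in GENCODE.
Mt1: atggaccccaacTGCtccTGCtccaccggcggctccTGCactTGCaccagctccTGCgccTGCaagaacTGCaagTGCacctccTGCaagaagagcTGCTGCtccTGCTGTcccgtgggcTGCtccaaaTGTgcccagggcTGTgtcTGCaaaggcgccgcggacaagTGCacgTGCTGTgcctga
Mt2: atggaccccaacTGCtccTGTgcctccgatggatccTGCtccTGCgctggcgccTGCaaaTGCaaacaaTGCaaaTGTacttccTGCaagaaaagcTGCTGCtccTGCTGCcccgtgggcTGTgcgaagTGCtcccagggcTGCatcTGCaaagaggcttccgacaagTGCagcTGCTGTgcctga
Each sequence has 186 bases, and 20 of its 61 amino acid codons, or 32.8%, encode cysteine. All 20 cysteine codons stand at the same positions in both genes. The sequences were identical at 148 bases (79.6%), and the longest identical run was 20 bases, shorter than a 75-base read. Of the 75-base windows of each principal transcript, 100% were found in no other gene for Mt1 and 67.7% for Mt2, and the rest of the Mt2 windows were shared with the overlapping gene model Gm45774, which is not listed in the count files.

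The stretches in front of 3 genes are shown because they hold the core of the metal response element, through which MTF1 acts. Each is the 250 bases before the gene start in RefSeq on GRCm38, on the plus strand, and capitals mark a match to TGCACNC or TGCGCNC on either strand.
Mt1, chr8:94178839-94179088: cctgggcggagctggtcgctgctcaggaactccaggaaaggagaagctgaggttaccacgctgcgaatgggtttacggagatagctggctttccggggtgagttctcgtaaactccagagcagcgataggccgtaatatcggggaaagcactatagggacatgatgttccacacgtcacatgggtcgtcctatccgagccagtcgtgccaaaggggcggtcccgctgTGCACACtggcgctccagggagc
Mt2, chr8:94172368-94172617: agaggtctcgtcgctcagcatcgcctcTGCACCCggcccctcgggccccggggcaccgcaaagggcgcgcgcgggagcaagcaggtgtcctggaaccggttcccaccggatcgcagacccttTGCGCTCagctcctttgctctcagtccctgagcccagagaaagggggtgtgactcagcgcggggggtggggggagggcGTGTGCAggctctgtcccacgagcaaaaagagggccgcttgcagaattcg
Slc30a1, chr1:191906531-191906780: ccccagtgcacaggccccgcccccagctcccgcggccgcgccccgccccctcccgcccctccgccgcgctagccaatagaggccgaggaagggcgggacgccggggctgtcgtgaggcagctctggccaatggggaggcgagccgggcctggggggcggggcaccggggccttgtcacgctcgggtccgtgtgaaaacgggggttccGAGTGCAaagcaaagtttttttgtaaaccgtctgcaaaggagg
The Mt2 stretch held 3 matches, beginning 223, 128 and 50 bases before the start, the Mt1 stretch held 1 at 23 bases and the Slc30a1 stretch 1 at 43 bases. At least 1 match was present in 21.4% of 32851 mouse promoters searched in the same way and at least 3 in 1.26%. Slc30a2 had 2 matches, at 214 and 200 bases, which 5.17% of promoters reach, Slc39a5 had 1 in front of 1 of its 2 starts, and the stretch in front of Slc39a7 had 0. The promoter table matched 6 of the 8 genes and gave no entry for Slc39a4 and Slc39a14. The matches describe letters only. In the principal transcripts the start codon lies 229 bases after the start for Mt1 and 184 for Mt2. The bases between start and start codon were not searched, so the counts may miss elements of either gene.

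The 10 libraries held 16715976 to 57784136 gene counts, with medians of 29883015 in WT and 36744810 in KSR23, so a count of 3 was worth 0.0536 to 0.168 CPM (a gene's counts divided by its library's scaled total in units of 1e+06). Alignments to more than 1 place, which were not counted, came to 1.07 to 1.26 per gene count in WT and 0.667 to 0.787 in KSR23. WT replicates 1 and 2 stood apart in Reg3b, an acinar stress gene, at 692 and 729 CPM against 4.73 to 14.6 CPM in the other WT libraries. Neutrophil markers summed to 432 CPM in KSR23 replicate 3 and to at most 100.4 CPM elsewhere. Enterocyte markers summed to 24.2 CPM in KSR23 replicate 2 and to at most 11.1 CPM elsewhere. The acinar, islet and duct markers that define pancreas were detected in every library.

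Of the 8 genes, 6 passed edgeR's quasi-likelihood test at an adjusted p under 0.05, against 31% of all genes tested. Called higher in KSR23 were 2 of the 8, against 16.2% of all genes tested, and called lower were 4 of the 8, against 14.8%. The libraries of both groups did not overlap for 5 of the 8 genes, against 19.4% of all genes. The median log2 fold change (log2 FC) of the 8 genes was -0.23, and that of all genes tested was -0.01.

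**Figure D1:**
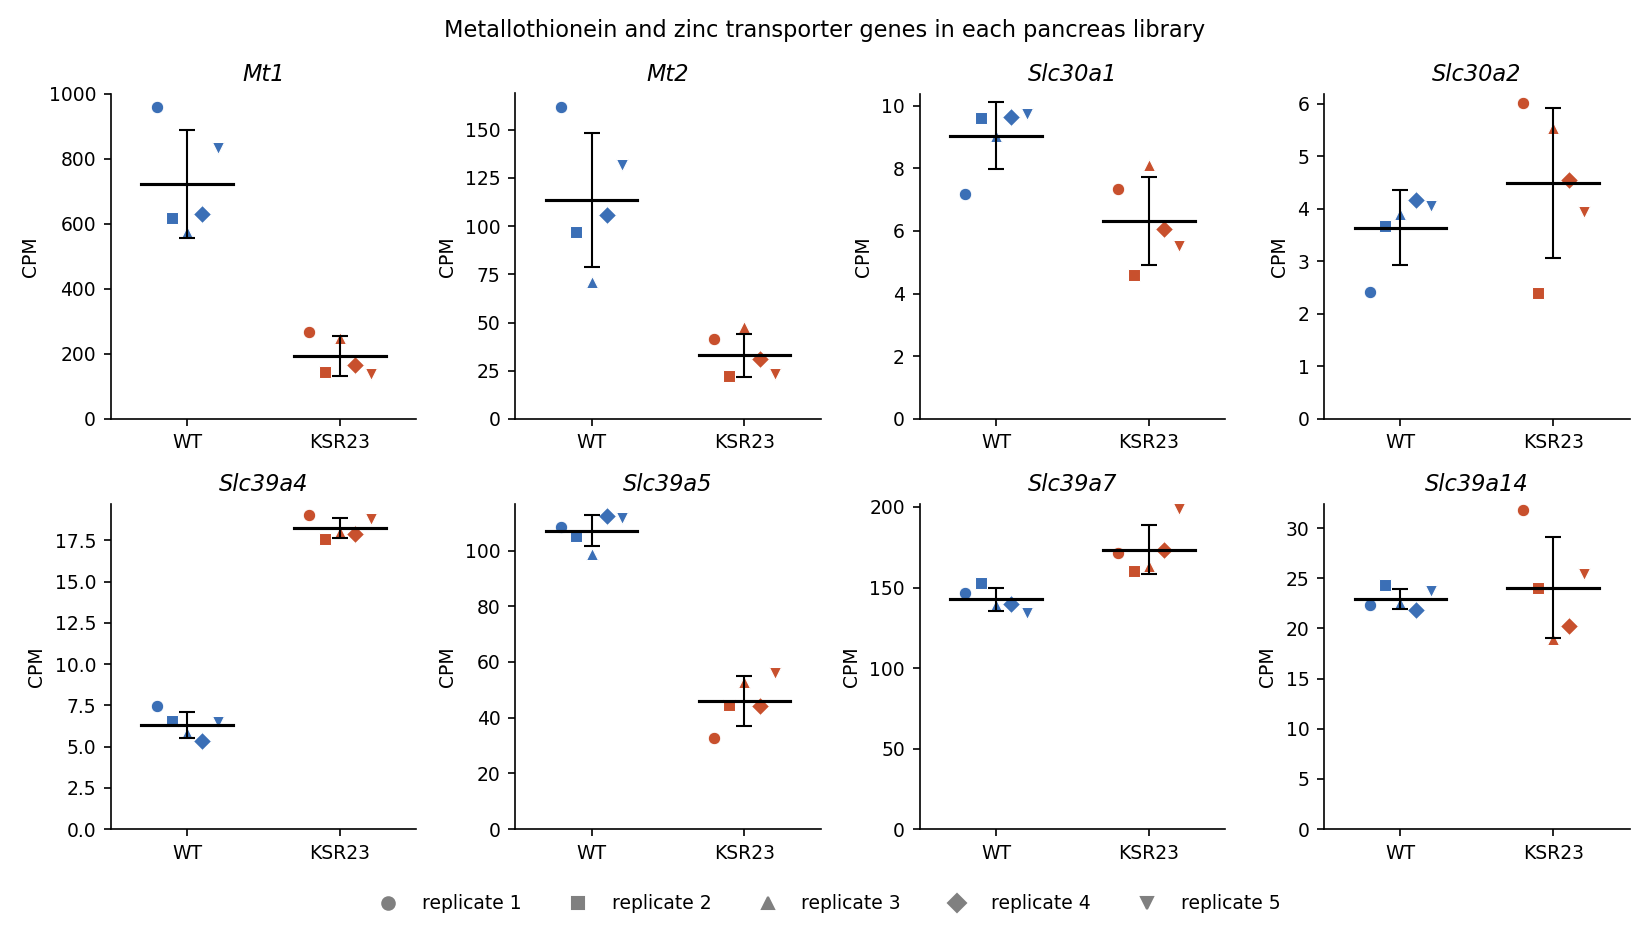
Level of each gene in CPM (linear axes from 0) in the 5 WT and 5 KSR23 libraries, with the mean as a line, the SD as bars and the replicate number as the marker. The groups are apart for Mt1, Mt2, Slc39a4, Slc39a5 and Slc39a7, and overlap for Slc30a1, Slc30a2 and Slc39a14.

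Mt1 was the highest of the 8 genes. Its level was 959, 618, 573, 631 and 832 CPM in WT replicates 1 to 5 and 268, 146, 250, 166 and 138 CPM in KSR23 replicates 1 to 5. All 5 KSR23 libraries were below all 5 WT libraries, and the gap between the groups was wider than the whole KSR23 range. The mean was 723 ± 166 CPM in WT and 194 ± 60.9 CPM in KSR23 (SD, n = 5 each), a log2 FC of -1.90 with an SE of 0.180 (adjusted p = 2.53e-07, edgeR). In the ranking of all genes by mean CPM, Mt1 stood at place 61 in WT and at place 260 in KSR23. Of the 13882 genes, 41 had a lower log2 FC than Mt1.

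Mt2 was at 162, 97.2, 71.1, 106 and 132 CPM in WT replicates 1 to 5. In KSR23 replicates 1 to 5 it was at 41.3, 22.1, 47.7, 30.9 and 23.5 CPM. Again no KSR23 library reached the lowest WT library. The mean was 114 ± 34.6 CPM in WT and 33.1 ± 11.1 CPM in KSR23 (SD, n = 5 each), with a log2 FC of -1.79 and an SE of 0.209 (adjusted p = 3.25e-06, edgeR). In bulk RNA fewer cells of a type and less RNA per cell cannot be told apart, and this holds for every gene described here.

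Both metallothionein genes moved in step from library to library. WT replicate 1 was the highest WT library for both, WT replicate 3 the lowest, and KSR23 replicates 2 and 5 were the lowest libraries for both. The root mean square difference between their centred log2 CPM profiles over the 10 libraries was 0.17, the smallest among the 28 pairs that the 8 genes form. Centring over both groups brings genes with a like fold change near, so this distance alone does not show that both vary together within a group. The ratio of Mt1 to Mt2 was 6.53 ± 0.880 in WT and 5.91 ± 0.622 in KSR23 (SD, n = 5 each). On the log2 scale the ratio differed by -0.14 between groups, which did not pass the exact permutation test (two-sided p = 0.262). Summed over both genes, the level was 836 ± 199 CPM in WT and 227 ± 71.5 CPM in KSR23, a difference of -1.91 in mean log2 CPM (two-sided exact permutation p = 0.00794, the smallest that 252 splits allow). The sum took 0.0614% to 0.107% of all gene counts in WT and 0.0156% to 0.0335% in KSR23.

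**Figure D2:**
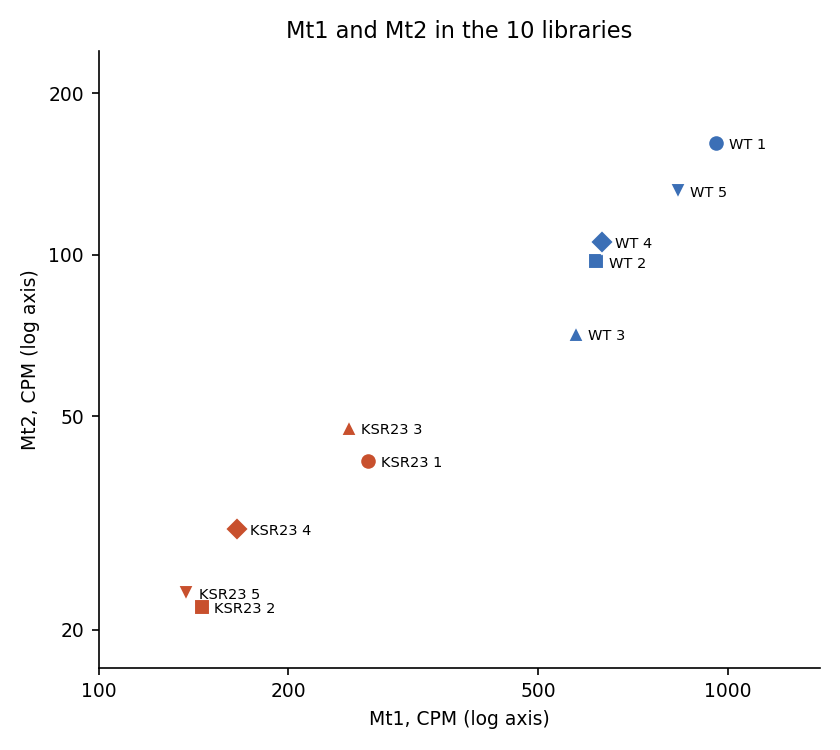
Mt1 level against Mt2 level in CPM, both on log axes, with 1 point for each of the 5 WT (blue) and 5 KSR23 (red) libraries labelled by replicate number. The WT points lie above 573 CPM of Mt1 and 71.1 CPM of Mt2, and the KSR23 points below 268 and 47.7 CPM.

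Cell type markers also differed between the groups, and their part in the metallothionein result was not tested. Of 11 acinar markers, 9 were lower in KSR23, against 14.8% of all genes, and 1 was higher, against 16.2%. The higher one was Gp2, by 3.59-fold. The acinar markers summed to 153287 to 174652 CPM in WT and 95105 to 123128 CPM in KSR23. Cel alone averaged 84453 CPM in WT and 56028 CPM in KSR23. Of 11 islet markers, 8 were lower and 1 was higher, against the same shares. They summed to 8139 to 11398 CPM in WT and 5014 to 6320 CPM in KSR23. Hepatocytes are rich in metallothionein, and of 6 hepatocyte markers 3 entered the test and 2, Ttr and Alb, were lower, with sums of 146 to 183 CPM in WT and 39.1 to 49.5 CPM in KSR23. Nearly all of this sum was Ttr, which islet cells also make, while Alb and Serpina1a averaged 4.52 and 0.0417 CPM in WT. The genes whose profile was nearest to that of Mt1 over the 10 libraries were Pga5, Sycn and Gm5420 (root mean square differences 0.30, 0.30 and 0.36 in log2 CPM), and to that of Mt2 Gm11744, Sycn and Pga5 (0.38, 0.39 and 0.39). Sycn encodes syncollin, a zymogen granule protein, and had a log2 FC of -1.89. Gm5420 averaged only 0.258 CPM in KSR23. Profiles were centred over all 10 libraries of both groups, so genes with a like fold change between groups come out near. A small distance does not show that genes vary together within a group, here or for the other nearest profiles below. Without WT replicates 1 and 2, which stood apart in Reg3b, the log2 FC was -1.81 for Mt1 and -1.65 for Mt2 (adjusted p = 1.01e-05 and 9.09e-05, edgeR).

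The other metallothioneins contributed little. Mt3, the brain form, did not reach the count minimum in every library and was at 0.281 to 0.645 CPM in WT and 0.149 to 0.352 CPM in KSR23. Mt4, which is known from stratified epithelia, had 0 counts in all 10 libraries.

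Slc30a1 (ZnT1) exports zinc across the cell membrane and is, like Mt1 and Mt2, a known target of MTF1. Its level was 7.19, 9.62, 9.03, 9.65 and 9.72 CPM in WT replicates 1 to 5 and 7.35, 4.59, 8.11, 6.05 and 5.54 CPM in KSR23 replicates 1 to 5. WT replicate 1 lay within the KSR23 range, so the groups overlapped, while 3 of 5 KSR23 libraries were below every WT library. The mean fell from 9.04 ± 1.07 to 6.33 ± 1.41 CPM (SD, n = 5 each), a log2 FC of -0.53 with an SE of 0.146 (adjusted p = 0.0109, edgeR). With scaling by library size alone the log2 FC was -0.43 and the adjusted p = 0.0534 (edgeR), which missed the threshold. Between 145 and 310 reads per library stood behind these values. The profiles nearest to Slc30a1 were those of Sphk1, Asxl2 and Oraov1 (root mean square differences 0.13, 0.14 and 0.14).

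Slc30a2 (ZnT2) loads zinc into secretory vesicles, including those of acinar cells. It was at 2.42, 3.67, 3.90, 4.16 and 4.06 CPM in WT and at 6.01, 2.40, 5.54, 4.56 and 3.95 CPM in KSR23, in replicate order. KSR23 replicate 2 was the lowest of all 10 libraries and KSR23 replicate 1 the highest. The means of 3.64 ± 0.709 and 4.49 ± 1.42 CPM (SD, n = 5 each) gave a log2 FC of 0.29 with an SE of 0.215 that did not pass the test (adjusted p = 0.323, edgeR).

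Slc39a4 (ZIP4) takes up zinc at the cell surface and is best known from the apical side of enterocytes. It was at 7.43, 6.53, 5.80, 5.32 and 6.48 CPM in WT replicates 1 to 5. In KSR23 replicates 1 to 5 it was at 19.0, 17.6, 18.0, 17.9 and 18.8 CPM. The KSR23 libraries lay close together and every one was above every WT library. The mean was 6.31 ± 0.801 CPM in WT and 18.2 ± 0.622 CPM in KSR23 (SD, n = 5 each), a log2 FC of 1.53 with an SE of 0.102 (adjusted p = 2.83e-09, edgeR), and 155 of 13882 genes had a higher log2 FC. Of 7 enterocyte markers 2 entered the test, Vil1 and Apoa4, and both were called higher in KSR23 (log2 FC 0.41 and 2.56). The groups overlapped for both. Apoa4 was low and uneven, at 0.460 ± 0.094 CPM in WT and 2.73 ± 5.20 CPM in KSR23 (SD, n = 5 each). Its log2 FC had an SE of 0.903 (adjusted p = 0.0384, edgeR). The 7 markers summed to 5.70 to 7.97 CPM in WT and 7.48 to 24.2 CPM in KSR23. The 24.2 CPM was KSR23 replicate 2, and the other KSR23 libraries reached at most 11.1 CPM. The enterocyte enzyme Sis was at or near 0 in all libraries. Of 7 duct markers 6 were higher, against 16.2% of all genes. The other, Krt19, did not pass (log2 FC -0.05, adjusted p = 0.663, edgeR). The 7 duct markers summed to 1146 to 1253 CPM in WT and 1862 to 2023 CPM in KSR23. The part of either cell type in the Slc39a4 result was not tested. Its nearest profiles were those of Sdc1, Naprt1 and Aldh1l1 (root mean square differences 0.10, 0.12 and 0.13).

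Slc39a5 (ZIP5) also takes up zinc and is known from the basolateral membrane of enterocytes and from acinar cells. It was at 108, 105, 98.6, 112 and 112 CPM in WT replicates 1 to 5. In KSR23 replicates 1 to 5 it was at 32.8, 44.6, 52.7, 44.2 and 56.0 CPM. All KSR23 libraries were below all WT libraries, with KSR23 replicate 1 the lowest. The mean was 107 ± 5.61 CPM in WT and 46.0 ± 9.01 CPM in KSR23 (SD, n = 5 each), a log2 FC of -1.22 with an SE of 0.107 (adjusted p = 9.13e-08, edgeR). The 2 importer genes of epithelial surfaces, Slc39a4 and Slc39a5, thus moved in opposite directions, and 130 of 13882 genes had a lower log2 FC than Slc39a5. The profiles nearest to Slc39a5 were those of Cpa1, which encodes an acinar zinc carboxypeptidase, Pbld1 and Reep5 (root mean square differences 0.11, 0.12 and 0.14). The drop in acinar markers given above moved with Slc39a5 too, and its part was not tested.

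Slc39a7 (ZIP7) releases zinc from the endoplasmic reticulum and Golgi into the cytosol. It was at 147, 153, 139, 140 and 134 CPM in WT replicates 1 to 5. In KSR23 replicates 1 to 5 it was at 171, 160, 163, 173 and 199 CPM. The groups did not overlap, but the gap between the highest WT and the lowest KSR23 library was smaller than the SD within either group. The mean rose from 143 ± 7.43 to 173 ± 15.2 CPM (SD, n = 5 each), a log2 FC of 0.28 with an SE of 0.0684 (adjusted p = 0.00444, edgeR). Its nearest profiles were those of Dedd, Abhd11 and Gpr108 (0.05 each). Of the 75-base windows of Slc39a7, 19.1% were found in no other gene model, the rest being shared with the overlapping model Gm20427, which is not listed in the count files.

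Slc39a14 (ZIP14) carries zinc, iron and manganese and is known to be induced in liver by interleukin-6. It was at 22.3, 24.3, 22.5, 21.8 and 23.7 CPM in WT replicates 1 to 5. In KSR23 replicates 1 to 5 it was at 31.8, 24.0, 19.0, 20.2 and 25.4 CPM. The KSR23 libraries spread to both sides of the WT range, with 2 above and 2 below all WT libraries. The means of 22.9 ± 1.04 and 24.1 ± 5.06 CPM (SD, n = 5 each) gave a log2 FC of 0.08 with an SE of 0.112 (adjusted p = 0.645, edgeR), and without KSR23 replicate 1 it was -0.05. Of 18 listed genes that answer to STAT3 and the acute phase, 6 did not reach the count minimum in every library. The 12 tested were higher in KSR23 in 11 cases, against 16.2% of all genes, with a median log2 FC of 1.87. Among them Socs3, a feedback inhibitor of cytokine signalling, was higher by 6.27-fold and Lcn2, an iron-sequestering protein, by 28.9-fold.

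**Figure D3:**
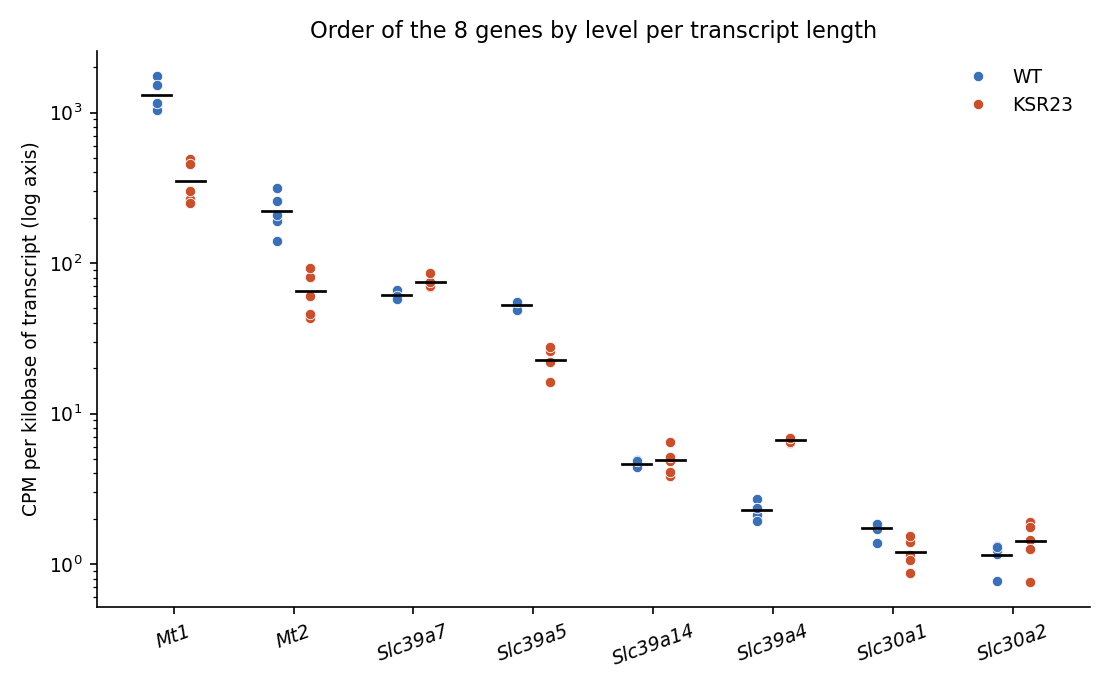
Level of the 8 genes in CPM per kilobase of the principal transcript (log axis) in each WT (blue) and KSR23 (red) library, ordered by the WT mean, with means as lines. Slc39a4 moves above Slc39a14 in KSR23, and Slc39a7 comes to lie with Mt2.

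Levels of different genes were compared per kilobase of principal transcript. In WT the order was Mt1 (1317 ± 301 CPM per kilobase, SD, n = 5), Mt2 (222 ± 67.7), Slc39a7 (61.4 ± 3.20), Slc39a5 (52.9 ± 2.77), Slc39a14 (4.66 ± 0.210), Slc39a4 (2.30 ± 0.291), Slc30a1 (1.72 ± 0.205) and Slc30a2 (1.16 ± 0.225). No neighbours in this order overlapped over the 5 WT libraries, but with the length of all annotated exons the ranges of Slc39a14 and Slc39a4, and of Slc39a4 and Slc30a1, did. In KSR23 Mt1 led at 353 ± 111 CPM per kilobase, and Slc39a7 (74.7 ± 6.56) and Mt2 (64.7 ± 21.8) overlapped in range. Slc39a5 followed at 22.7 ± 4.45 CPM per kilobase. Slc39a4 (6.64 ± 0.226) was above Slc39a14 (4.89 ± 1.03) in all 5 libraries when compared within a library, although the ranges overlapped. Slc30a2 (1.42 ± 0.451) and Slc30a1 (1.21 ± 0.269) overlapped. The log2 ratio of the summed CPM of the 4 importer genes to that of the 2 exporter genes, taken without dividing by length, was higher by 0.16 in KSR23 and did not pass the exact permutation test (two-sided p = 0.437). Slc39a7 and Slc39a5, at 143 and 107 CPM in WT, made up most of the importer sum, while Slc39a4 added 6.31 CPM. The difference in the log2 ratio was 0.04 without KSR23 replicate 2, 0.08 without KSR23 replicate 5, 0.26 without KSR23 replicate 1, and 0.27 without either KSR23 replicate 3 or WT replicate 1.

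**Figure D4:**
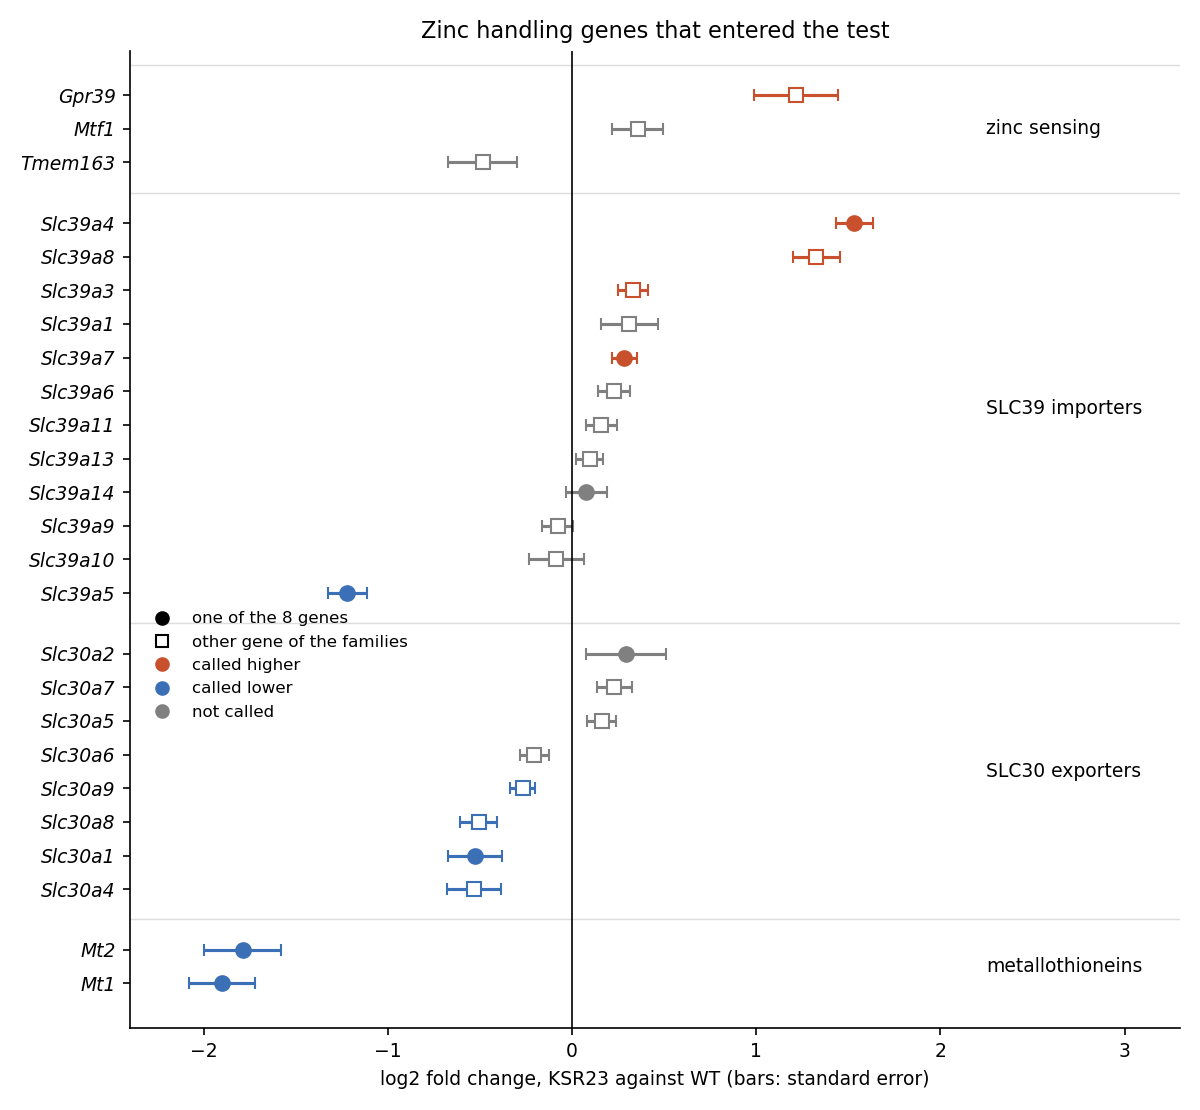
Log2 FC of KSR23 against WT with its standard error for the 25 genes of the metallothionein, SLC30, SLC39 and zinc sensing lists that entered the test, filled circles for the 8 genes and open squares for the others. Red marks genes called higher, blue genes called lower and grey genes that did not pass. Both metallothioneins lie furthest to the left and Slc39a4 and Slc39a8 furthest to the right.

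The rest of these families was read from a list of 23 further genes, of which 17 entered the test. Of the 17, 3 were higher and 3 lower in KSR23 and 11 did not pass, so 6 of 17 passed against 31% of all genes, and their median log2 FC was 0.16. Among the importers, Slc39a8 (ZIP8), which carries zinc and manganese and is the closest relative of Slc39a14, was at 25.1 to 29.1 CPM in the WT libraries and at 47.9 to 93.6 CPM in the KSR23 libraries, a log2 FC of 1.33 with an SE of 0.128 (adjusted p = 3.39e-07, edgeR). The difference between the changes of Slc39a8 and Slc39a14 was not tested. Slc39a3, a cell surface importer, was higher by 0.33 in log2 FC with non-overlapping groups. Slc39a1 (0.31), Slc39a6 (0.22), Slc39a9 (-0.08), Slc39a10 (-0.09), Slc39a11 (0.16) and Slc39a13 (0.10) did not pass. Slc39a6 lay near the threshold (adjusted p = 0.0564, edgeR), also with non-overlapping groups, and passed in 3 of 19 alternatives.

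Of the further exporters, Slc30a4 (log2 FC -0.53), Slc30a8 (-0.51) and Slc30a9 (-0.27) were lower in KSR23. Slc30a8 (ZnT8) loads zinc into the insulin granules of beta cells and fell from 20.5 ± 1.59 to 14.5 ± 1.88 CPM (SD, n = 5 each; adjusted p = 0.000879, edgeR), beside the islet marker Ins2 at a log2 FC of -0.75. Slc30a5 (0.16), Slc30a6 (-0.20) and Slc30a7 (0.23) did not pass. Slc30a6 lay near the threshold (adjusted p = 0.0592, edgeR), with non-overlapping groups, and passed in 3 of 19 alternatives. The call of Slc30a9 was lost with scaling by library size alone (log2 FC -0.18, adjusted p = 0.0898, edgeR), where Slc30a5 and Slc30a7 passed as higher (adjusted p = 0.0165 and 0.0158, edgeR). With Slc30a1 included, 4 of 8 tested SLC30 genes were called, all lower, and 5 of 12 tested SLC39 genes, 4 of them higher, against 31% of all genes. The difference between the families was not tested. The calls among SLC30 genes changed with library size alone as given above, although no tested SLC30 gene changed sign. Slc30a3, Slc30a10, Slc39a2 and Slc39a12 did not reach the count minimum in every library.

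On the zinc sensing list Gpr39, a zinc-activated receptor, was higher in KSR23, with a log2 FC of 1.22 (adjusted p = 0.00055, edgeR). Its level was 0.871 to 1.96 CPM in WT and 2.46 to 3.93 CPM in KSR23. Mtf1, which encodes the metal-responsive factor itself, was at 6.65 ± 0.897 and 8.49 ± 1.43 CPM (SD, n = 5 each), a log2 FC of 0.35 that did not pass (adjusted p = 0.0562, edgeR). Tmem163, a zinc binding membrane protein, had a log2 FC of -0.49 and did not pass (adjusted p = 0.0569, edgeR). Both lay near the threshold and passed in 5 of 19 alternatives each, among them the edgeR likelihood ratio test (adjusted p = 0.0491 and 0.0432) and DESeq2 (adjusted p = 0.0426 and 0.0357).

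Zinc carboxypeptidases are digestive enzymes that hold the metal in their active site, and Cpa1 and Cpb1 were lower in KSR23. Cpa1 fell from 19465 ± 788 to 7546 ± 1067 CPM and Cpb1 from 39119 ± 3206 to 26997 ± 2441 CPM (SD, n = 5 each), by log2 FC values of -1.37 and -0.54.

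Glucocorticoids are another known inducer of Mt1 and Mt2, and a list of 9 genes that respond to them was read beside the metallothioneins. Of 8 tested, 5 were higher in KSR23, against 16.2% of all genes, and 1 was lower, against 14.8%. The median log2 FC was 0.66. Ddit4, Klf9 and Per1 were higher by 0.64, 0.71 and 0.98 in log2 FC, and Sgk1 was lower, at -0.64. Per1 spread from 3.47 to 12.7 CPM within KSR23. Fkbp5 and Tsc22d3 had log2 FC values of 0.24 and -0.02 and did not pass (adjusted p = 0.175 and 0.910, edgeR). Without WT replicates 1 and 2, which leaves 3 WT libraries, 3 of the 8 passed, all of them higher, while the count over all genes went from 4299 to 3321.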

How the data were processed

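Whole pancreas RNA from 5 WT and 5 KSR23 mice at postnatal day 5 was sequenced, with 1 library per mouse, and groups were taken from the sample labels. Per the labels and the methods, 100 pg of RNA was primed with oligo-dT (SMART-Seq v4) and amplified, single-end reads of 75 bases were mapped by TopHat 2.1.0 against mm10, and uniquely aligned reads were counted per gene with HTSeq 0.6.1p1 by strict intersection. The authors deposited raw counts per gene, with no normalization. The gene annotation and strand setting are not given in the sources used here. Strict counting without unique molecular identifiers leaves PCR copies in the counts and drops reads shared by overlapping genes, and the floor of 3 counts covers counting error only.

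A minimum of 5 counts per library was required of each gene, and tally lines of unassigned reads were left out. Counts were scaled by TMM and compared with edgeR 4.0.16 (R 4.3.3; quasi-likelihood F test, Benjamini-Hochberg adjustment over all genes tested, threshold 0.05), and the scripts were tested on simulated data. CPM values use the scaled library sizes, and log2 CPM values a prior count of 2. Ratios and sums were compared by exact permutation over 252 splits, two-sided, and only the ratios used a pseudocount of 0.5. Sequences and positions came from GENCODE M21 and RefSeq on GRCm38, without any conversion between builds. Alternatives were DESeq2 1.42.0, the likelihood ratio test, other scalings and filters, a replicate block, each library left out, and WT replicates 1 and 2 left out together, the last chosen after seeing the data.

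The 8 genes, the gene lists and the tests were chosen with earlier results of these data known. The genes named were all 8, every other gene of the metallothionein, SLC30, SLC39 and zinc sensing lists, at most the 4 genes with the smallest adjusted p of each other list, and the 3 nearest profiles of each of the 8 genes that passed the test. Reg3b, Sis, Serpina1a, Cel, Krt19, Fkbp5 and Tsc22d3 were named outside this rule, after their values were seen. One item of the carboxypeptidase list is not reported here.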

Additional observations from a re-analysis of the deposited data

Results flagged for a closer look

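Of 56 groups of 5 libraries checked for a library far from the rest (Dixon's ratio above 0.71), 5 held one, and chance alone gives about 2.8. In 3 of the 5 the library was WT replicate 1. Its Slc30a1 level was 7.19 CPM against 9.03 to 9.72 CPM in the other WT libraries, and its Slc30a2 level was 2.42 CPM against 3.67 to 4.16 CPM. Its log2 ratio of the importer to the exporter genes was 4.89 against 4.32 to 4.44, a value made from the same exporter counts. WT replicate 1 also had the highest Mt1 and Mt2 levels of all libraries, and is 1 of the 2 WT libraries with high Reg3b. The log2 ratio of Mt1 to Mt2 was 3.01 in WT replicate 3, and the rest of the WT group lay at 2.57 to 2.67. That library had the lowest Mt2 level of its group. Slc39a13 was at 27.2 CPM in KSR23 replicate 3 against 26.1 to 26.4 CPM in the other KSR23 libraries, a small gap in a group that lay close together.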

How the results depend on the processing

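All 6 calls among the 8 genes were kept under the 19 alternatives, except that Slc30a1 was lost with scaling by library size alone, which left 5. Mt1 had log2 FC values of -2.06 to -1.78 over these alternatives, Mt2 -1.95 to -1.63, Slc39a4 1.47 to 1.64 and Slc39a5 -1.30 to -1.12. With 1 library left out, Slc39a14 ranged from -0.0493 (without KSR23 replicate 1) to 0.147 and Slc39a10 from -0.174 to 0.0291 (without WT replicate 4), so both changed sign. With library size alone Slc39a10 turned to 0.00676 and Slc39a9 to 0.0128. None of these 3 genes passed the test in any setting. Library size alone moved the median log2 FC of all genes to 0.09. Among the 17 further family genes 10 passed with DESeq2 (5 higher, 5 lower) and 10 with library size alone (8 higher, 2 lower), against 6 (3 and 3). The cause was not tested. The glucocorticoid count went from 6 to 3 without WT replicates 1 and 2, a setting with fewer samples. Over all genes 4299 passed, and 3497 to 4173 with 1 library left out.

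The replicate numbers name different mice, and libraries with the same number did not deviate together (correlations -0.11 to 0.07). With the replicate number as a block, 3749 genes passed and the same 6 of the 8 genes. For the summed metallothionein level a paired sign-flip gave the same difference of -1.91 with an exact p = 0.0625, the smallest that 5 pairs allow. Depth limits Slc30a2, with 69 to 239 reads per library.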

Other observations

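Some carriers of zinc also move iron or copper. Of 21 tested iron and copper handling genes 4 were higher and 4 lower in KSR23 and 13 did not pass, a share of 38.1% called against 31% of all genes, with a median log2 FC of -0.06. Trf (transferrin) rose from 129 ± 12.3 to 495 ± 143 CPM and Cp (ceruloplasmin, a copper ferroxidase) from 20.4 ± 2.04 to 69.5 ± 17.2 CPM (SD, n = 5 each). Steap4, a metalloreductase, was higher by 2.63-fold. Hamp2, a hepcidin gene, was lower by 10.5-fold, at 15.8 ± 3.49 CPM in WT and 1.54 ± 0.365 CPM in KSR23 (SD, n = 5 each).

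Other cell type markers differed as well, beside 16.2% of all genes tested that were higher and 14.8% that were lower. Among the duct markers Sox9 was higher by 1.82-fold and Spp1 by 1.73-fold. Of 7 neutrophil markers tested 5 were higher, led in level by KSR23 replicate 3, and of 7 macrophage markers 5 were higher and 1 (C1qa) was lower. Of 7 stromal markers 1 (Pdgfrb) was higher and 1 (Lum) lower, and of 4 endothelial markers 1 was higher and 2 were lower.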
